A study of Homo sapiens with 12 samples.

Results

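Phosphoinositides are membrane lipids built on an inositol ring, and the kinases and phosphatases that add or remove phosphates at the ring decide which proteins bind a given membrane. The messages of 50 such genes were followed in MEC1 and JVM2, established human lines of neoplastic B cells, when the glucuronidation enzyme UGT2B17 was expressed or repressed. The genes were taken by symbol from both count tables, which together list 23533 genes, and comprise 20 kinases or kinase subunits, 24 phosphatases or their inactive homologues, 3 phospholipases C and 3 genes of lipid supply and transfer. *PIK3CD*, *PIK3R1* and *INPP5D* were left out of the list by its rule. MEC1-2B17 and JVM2-2B17 cells stably carried the coding sequence of *UGT2B17* in the pcDNA6 vector under blasticidin selection. JVM2-CTRL cells carried the empty vector under the same antibiotic, whereas MEC1-CTRL cells carried an shRNA that represses *UGT2B17* under puromycin. The MEC1 arms thus differed in construct and antibiotic as well as in *UGT2B17*, and these cannot be told apart. Each of the 4 groups had 3 biological replicates.

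Class I PI 3-kinases answer receptors by making phosphatidylinositol 3,4,5-trisphosphate, the lipid that recruits AKT below the B-cell receptor. The class III kinase makes the phosphatidylinositol 3-phosphate of endosomes and autophagosomes, and 4-kinases and PIP kinases build the pools of the Golgi and plasma membrane. The 3-, 4- and 5-phosphatases undo these steps, phospholipases C cut the plasma membrane pool into 2 second messengers, and transfer proteins resupply the precursor.

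Libraries held 31762649 to 37744991 counts in MEC1 and 8809179 to 11231330 counts in JVM2, and edgeR put the shared variation of replicates beyond counting error at 4.22% in MEC1 and 6.92% in JVM2. The libraries were sequenced at 2 sites that the sources do not assign to samples, and line, depth and site cannot be told apart. *UGT2B17* was higher in every 2B17 library than in every CTRL library of its line, by a log2 change (the log2 fold change of 2B17 over CTRL cells) of 0.94 (SE 0.069, adjusted *P* = 2.0e-09) in MEC1 and of 0.48 (SE 0.11, adjusted *P* = 0.0048) in JVM2, from edgeR's quasi-likelihood test. All 6 B-cell markers were present, at a summed level of 1248 to 2302 CPM per library (CPM being the counts of a gene relative to the scaled size of its library). T-cell, myeloid and NK markers summed to at most 0.245, 1.69 and 4.79 CPM. MEC1-CTRL replicate 3 and JVM2-2B17 replicate 2 stood farthest from their own group, with a mean chi-square per gene of 6.77 to 8.58 against its other replicates, and counts without them are given below. In these bulk samples, fewer cells of a kind and less RNA per cell cannot be told apart.

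In MEC1, 29 of the 50 members passed the threshold (adjusted *P* below 0.05), 11 higher and 18 lower in 2B17 cells. That was 58% of the members against 41.7% of the 16581 genes tested in that line, of which 20.0% were higher and 21.6% lower. In JVM2, 20 of the 49 members tested passed, 7 higher and 13 lower, or 40.8% against 29.3% of 13021 genes, of which 14.1% were higher and 15.3% lower. Members were more highly expressed than most genes, with a median average log2 CPM of 5.42 against 4.03 over all genes tested in MEC1 and of 5.73 against 4.85 in JVM2, and the part of expression level in these shares was not tested. The median log2 fold change of the members was -0.06 in each line. On the log2 scale, 5 of 50 members in MEC1 and 8 of 49 in JVM2 moved by at least 0.5. Over all genes tested, 2699 of 16581 in MEC1 and 2101 of 13021 in JVM2 did so. The median absolute log2 change was 0.13 for members against 0.17 for all genes in MEC1, and 0.20 against 0.18 in JVM2. CPM values of the arms did not overlap for 33 members in MEC1 (66%, against 50.1% of all genes tested) and for 28 in JVM2 (57.1%, against 45.2%). The members and the other gene lists below were chosen with earlier results of these data known. Shares given here and below are thus not independent evidence of an excess among them.

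The number of calls depended on single libraries in JVM2. Without JVM2-CTRL replicate 3, 12 members passed, and without JVM2-2B17 replicate 2, 24 did. Calls over all genes moved the same way, from 3821 with every library to 2687 and to 4540. Rises in JVM2 fell to 3 without JVM2-CTRL replicate 2, JVM2-CTRL replicate 3 or JVM2-2B17 replicate 3. In MEC1, 26 members passed without MEC1-CTRL replicate 3, and rises numbered 7 without MEC1-CTRL replicate 2. Over all genes, 6606 passed in MEC1 without MEC1-CTRL replicate 3, against 6909 with every library.

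**Figure D1:**
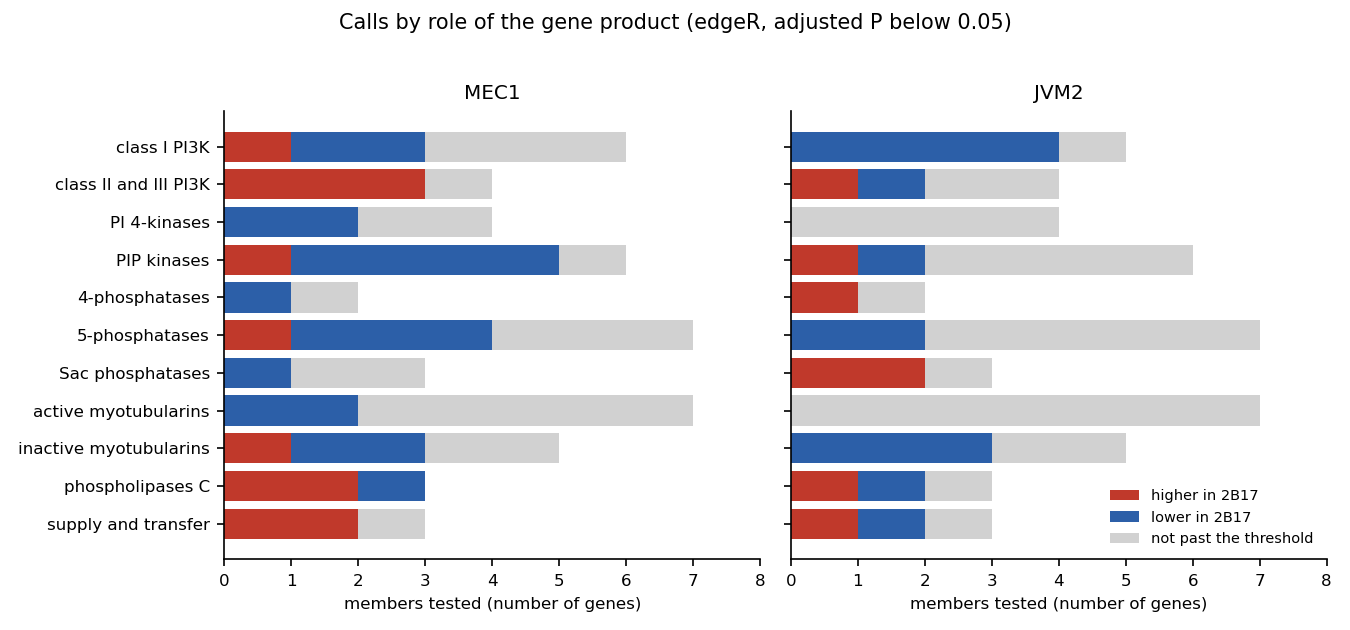
Members by role of their product, as the number of genes tested that were higher in 2B17 cells (red), lower (blue) or not past the threshold (grey) in MEC1 (left) and JVM2 (right). No PI 4-kinase and no active myotubularin passed in JVM2, and 4 of the 5 class I members tested there were lower. Over all genes tested, 41.7% passed in MEC1 and 29.3% in JVM2.

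The class I PI 3-kinases held several of the larger changes. Of 6 members tested in MEC1, 1 was higher and 2 were lower, and of 5 tested in JVM2, none was higher and 4 were lower. These and the counts by role below stand beside 41.7% of all genes tested that passed in MEC1 and 29.3% in JVM2. *PIK3CG* (ENSG00000105851, chr7:106865278-106908980) encodes p110γ, the catalytic subunit that G protein-coupled receptors activate. MEC1-CTRL replicates had 15.1, 17 and 15.6 CPM of *PIK3CG* and MEC1-2B17 replicates 10.7, 10 and 9.90 CPM. JVM2-CTRL replicates had 36.4, 43.1 and 41.7 CPM and JVM2-2B17 replicates 23.0, 21.4 and 19.9 CPM. All 2B17 replicates lay below all CTRL replicates in each line. The log2 fold change of *PIK3CG* was -0.64 (SE 0.070, adjusted *P* = 5.5e-07) in MEC1 and -0.91 (SE 0.094, adjusted *P* = 1.4e-05) in JVM2.

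*PIK3R5* (ENSG00000141506, chr17:8878911-8965712) encodes p101, a regulatory partner of p110γ, and went in opposite directions in the lines. It had 30.3, 31.2 and 30.7 CPM in MEC1-CTRL and 60.0, 59.8 and 63.5 CPM in MEC1-2B17. In JVM2-CTRL it had 78.5, 73.5 and 70.3 CPM, and in JVM2-2B17 50.5, 43.4 and 45.1 CPM. Expression thus rose 1.99-fold in MEC1 (log2 fold change 0.99, SE 0.045, adjusted *P* = 2.9e-12) and was 1.60-fold lower in JVM2 (log2 fold change -0.67, SE 0.076, adjusted *P* = 3.1e-05). Per length of merged exons (all annotated exons of a gene joined), the ratio of *PIK3R5* to *PIK3CG* was 2.00 ± 0.0941 (SD, n = 3) in MEC1-CTRL and 6.20 ± 0.413 in MEC1-2B17. In JVM2 the same ratio was 1.91 ± 0.276 in CTRL cells and 2.24 ± 0.125 in 2B17 cells, where both genes were lower. Per length of the longest transcript these ratios were 1.52 times as large, at 3.05 and 9.43 in MEC1 and 2.91 and 3.40 in JVM2.

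*PIK3R3* (ENSG00000117461, chr1:46040140-46133036) encodes p55γ, a regulatory subunit that binds phosphotyrosine. It had 25.8, 23.3 and 24.1 CPM in MEC1-CTRL and 14.8, 13.8 and 13.7 CPM in MEC1-2B17, a log2 change of -0.79 (SE 0.061, adjusted *P* = 4.1e-09). JVM2-CTRL replicates had 77.2, 77.6 and 81.8 CPM and JVM2-2B17 replicates 63.0, 68.2 and 66.1 CPM, a log2 change of -0.26 (SE 0.062, adjusted *P* = 0.0072). The arms did not overlap in either line, and in JVM2 the adjusted *P* was 0.052 without JVM2-CTRL replicate 3. The readthrough gene *P3R3URF-PIK3R3* holds 22.4% of the 50-base stretches of the *PIK3R3* transcript, and reads of these genes cannot be told apart there. *PIK3CB*, which encodes the widely expressed p110β, had 17.4, 17.7 and 20.9 CPM in JVM2-CTRL and 12.8, 13.6 and 13 CPM in JVM2-2B17, and fell there without overlap (log2 fold change -0.51, SE 0.11, adjusted *P* = 0.0037). In MEC1, *PIK3CB* had 8.65, 8.42 and 8.28 CPM in CTRL and 9.38, 8.60 and 9.11 CPM in 2B17 cells, which was not past the threshold (log2 fold change 0.10, SE 0.077, adjusted *P* = 0.35).

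The remaining class I members did not pass. *PIK3CA*, which encodes p110α, had a log2 change of 0.09 (SE 0.038, adjusted *P* = 0.073) in MEC1 and of 0.16 (SE 0.086, adjusted *P* = 0.18) in JVM2. *PIK3R2*, the gene of p85β, was barely detected, at 1.05, 1.10 and 1.02 CPM in MEC1-CTRL and 1.07, 0.826 and 1.01 CPM in MEC1-2B17. In JVM2 it had 0.0995, 0.466 and 0.212 CPM in CTRL and 0.271, 0.225 and 0.113 CPM in 2B17 cells, and was removed by the filter on low counts. A readthrough gene (ENSG00000268173) shares 99.1% of the 50-base stretches of *PIK3R2*, so its true level cannot be read from these counts.

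Promoters of *PIK3CG* and *PIK3R3*, lower in both lines, and of *PIK3C3*, higher in both, are shown as examples among the 10 members with the same direction in each line. Each window runs 250 bases before to 50 bases after the start in RefSeq (GRCh38.p14), 5′ to 3′ on the gene's strand, at chr7:106865229-106865528 (+), chr1:46132580-46132879 (−) and chr18:41954984-41955283 (+). Capitals mark the GC box GGGCGG and the CCAAT box, found on either strand.
PIK3CG: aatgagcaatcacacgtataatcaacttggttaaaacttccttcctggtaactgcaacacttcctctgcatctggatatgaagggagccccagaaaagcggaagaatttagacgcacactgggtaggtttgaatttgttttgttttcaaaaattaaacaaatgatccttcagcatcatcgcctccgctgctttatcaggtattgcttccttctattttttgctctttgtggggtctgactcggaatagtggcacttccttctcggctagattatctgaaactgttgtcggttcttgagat
PIK3R3: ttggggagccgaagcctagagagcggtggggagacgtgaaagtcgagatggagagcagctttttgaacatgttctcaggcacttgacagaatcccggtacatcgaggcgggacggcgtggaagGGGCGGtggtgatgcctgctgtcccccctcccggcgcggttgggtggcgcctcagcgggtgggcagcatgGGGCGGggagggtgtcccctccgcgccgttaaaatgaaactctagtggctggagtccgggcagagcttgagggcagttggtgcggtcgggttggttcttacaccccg
PIK3C3: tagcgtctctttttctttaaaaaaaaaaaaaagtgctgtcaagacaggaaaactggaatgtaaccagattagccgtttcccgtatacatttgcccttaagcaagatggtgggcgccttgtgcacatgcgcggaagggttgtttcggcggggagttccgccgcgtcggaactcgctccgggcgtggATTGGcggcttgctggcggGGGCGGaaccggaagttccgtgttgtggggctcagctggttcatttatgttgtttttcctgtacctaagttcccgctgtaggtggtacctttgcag
The *PIK3CG* window had 41.7% G and C against a median of 58.7% over 35116 promoters and held none of the motifs searched, while that of *PIK3R3* held 2 GC boxes and that of *PIK3C3* 1 GC box and 1 CCAAT box. Of the 45 members in the promoter table, 36 held GGGCGG (80%, against 45% of all promoters), 16 held CCAAT (35.6%, against 34.6%), 1 held TATAAA (2.22%, against 11.5%), 1 held TGACGTCA (2.22%, against 1.85%) and 5 held CACGTG (11.1%, against 7.26%). Such matches describe the letters of the window and say nothing of binding. Shares over all promoters counted every entry, whereas each member was counted with 1 promoter, so the shares rest on unlike sets.

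Of the 4 class II and class III members, 3 were higher in MEC1, and 1 was higher and 1 lower in JVM2. *PIK3C3* (ENSG00000078142, chr18:41955234-42087830) encodes VPS34, the class III kinase of endosomes and autophagy. It had 73.7, 75.7 and 72.6 CPM in MEC1-CTRL and 98.8, 98.8 and 99.4 CPM in MEC1-2B17. JVM2-CTRL replicates had 107, 109 and 110 CPM and JVM2-2B17 replicates 159, 185 and 164 CPM. Every 2B17 replicate exceeded every CTRL replicate in its line, with log2 changes of 0.42 (SE 0.034, adjusted *P* = 8.9e-09) in MEC1 and 0.64 (SE 0.067, adjusted *P* = 1.6e-05) in JVM2. The other genes tested within 5 Mb of *PIK3C3* had a median log2 change of -0.20 in MEC1 (17 genes) and -0.31 in JVM2 (10 genes), opposite to the member itself. These were the lowest such medians of any member in each line.

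*PIK3R4* encodes VPS15, the scaffold that VPS34 needs. It rose by 0.10 on the log2 scale in MEC1 (SE 0.039, adjusted *P* = 0.044), a call that was lost without MEC1-2B17 replicate 1 or 3 or MEC1-CTRL replicate 1 or 2 (adjusted *P* of 0.070 to 0.19). With all libraries, 6 of the 8 alternative fits lost it too (adjusted *P* of 0.055 to 0.079), among them DESeq2, the exact test and both tools together. In JVM2 its log2 fold change was -0.09 (SE 0.056, adjusted *P* = 0.28). Per length, *PIK3C3* stood at 0.435 ± 0.0150 of *PIK3R4* in MEC1-CTRL and 0.543 ± 0.00391 in MEC1-2B17, and at 0.399 ± 0.00662 in JVM2-CTRL and 0.660 ± 0.0393 in JVM2-2B17 (SD, n = 3), and by the longest transcript at 0.654 and 0.815 in MEC1 and 0.599 and 0.991 in JVM2. Of the class II kinases, *PIK3C2A*, which acts in clathrin-mediated endocytosis, was higher in MEC1 (log2 fold change 0.14, SE 0.041, adjusted *P* = 0.010) and had a log2 change of -0.04 in JVM2 (adjusted *P* = 0.64). *PIK3C2B* was lower in JVM2 (log2 fold change -0.43, SE 0.11, adjusted *P* = 0.014; 0.066 without JVM2-CTRL replicate 3), against -0.12 in MEC1 (SE 0.051, adjusted *P* = 0.064).

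**Figure D2:**
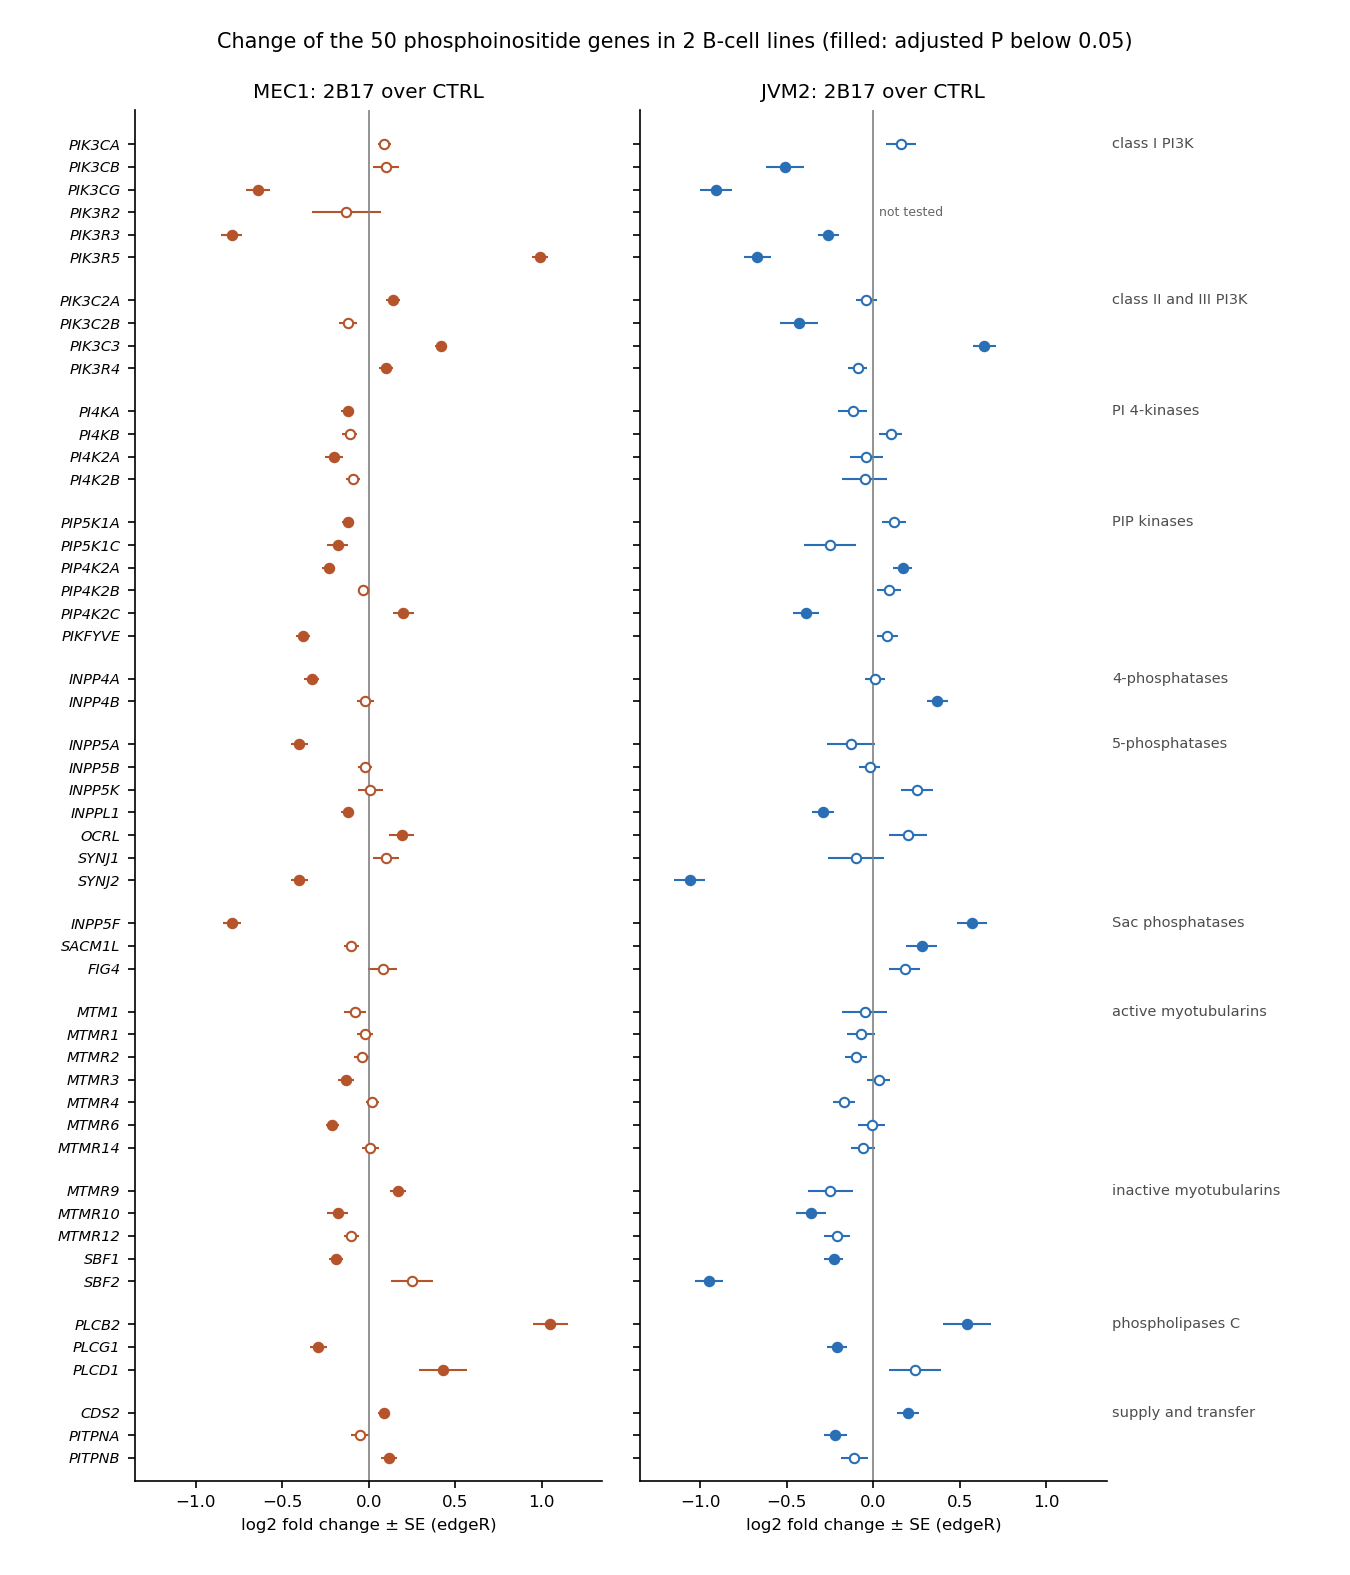
Log2 fold change of 2B17 over CTRL cells (horizontal axis, points, with bars of 1 SE, edgeR, 3 libraries against 3) for each member in MEC1 (left) and JVM2 (right), ordered by role, with filled points past an adjusted *P* of 0.05. Changes ran from -0.79 to 1.05 in MEC1 and from -1.06 to 0.64 in JVM2.

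The PI 4-kinases start the path to the 4,5-bisphosphate. All 4 PI 4-kinases had negative log2 fold changes in MEC1, from -0.20 to -0.09, and 2 passed the threshold while *PI4KB* and *PI4K2B* did not. The former were *PI4K2A*, of the trans-Golgi and endosomes (-0.20, SE 0.051, adjusted *P* = 0.0033), and *PI4KA*, which supplies the plasma membrane (-0.12, SE 0.038, adjusted *P* = 0.014). The *PI4KA* call was lost without MEC1-2B17 replicate 1 or 2 or MEC1-CTRL replicate 3 (adjusted *P* of 0.051 to 0.083), and the pseudogene *PI4KAP2* shares 16.0% of its 50-base stretches. ENSG00000249967 shares 27.1% of those of *PI4K2A*. In JVM2 none of the 4 passed, with log2 fold changes between -0.12 and 0.10.

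Of 6 PIP kinases tested in each line, 1 was higher and 4 were lower in MEC1, and 1 was higher and 1 lower in JVM2. *PIKFYVE*, the kinase of endosomal phosphatidylinositol 3,5-bisphosphate, fell in MEC1 (log2 fold change -0.38, SE 0.040, adjusted *P* = 3.3e-07) and had a log2 change of 0.08 in JVM2 (SE 0.061, adjusted *P* = 0.35). Type I kinases *PIP5K1A* (-0.12, SE 0.033, adjusted *P* = 0.0088) and *PIP5K1C* (-0.18, SE 0.060, adjusted *P* = 0.021) were lower in MEC1 and did not pass in JVM2. The *PIP5K1C* call was lost without MEC1-2B17 replicate 2 (adjusted *P* = 0.15) or MEC1-CTRL replicate 3 (adjusted *P* = 0.089). *PIPSL*, a fused retrogene, shares 8.85% of the 50-base stretches of *PIP5K1A*.

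Type II PIP kinases, which act on the rarer 5-phosphate, split in opposite ways. *PIP4K2A* had 242, 234 and 226 CPM in MEC1-CTRL and 201, 203 and 193 CPM in MEC1-2B17, and fell (log2 fold change -0.23, SE 0.037, adjusted *P* = 4.8e-05). In JVM2 it had 225, 234 and 231 CPM in CTRL and 268, 246 and 260 CPM in 2B17 cells, and was higher (log2 fold change 0.17, SE 0.056, adjusted *P* = 0.042). That rise was lost without any single library of JVM2 but JVM2-2B17 replicate 2 (adjusted *P* of 0.084 to 0.14) and, with all libraries, in DESeq2 (adjusted *P* = 0.064), edgeR's exact test and both tools together (0.069 each as adjusted *P*). *PIP4K2C* showed the reverse, with 14, 14.3 and 14.2 CPM in MEC1-CTRL against 16.2, 15.5 and 17 CPM in MEC1-2B17 (log2 fold change 0.20, SE 0.062, adjusted *P* = 0.016; 0.059 without MEC1-2B17 replicate 3). It had 39.8, 37.6 and 40.2 CPM in JVM2-CTRL against 29.7, 29.3 and 30.9 CPM in JVM2-2B17 (log2 fold change -0.39, SE 0.074, adjusted *P* = 0.0020). The arms of both genes did not overlap in either line. *PIP4K2B* passed in neither line.

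Each 4-phosphatase changed in 1 line. *INPP4B*, which removes the 4-phosphate from the 3,4-bisphosphate, had 147, 154 and 158 CPM in JVM2-CTRL and 194, 207 and 190 CPM in JVM2-2B17, a rise of 0.37 (SE 0.060, adjusted *P* = 0.00061) on the log2 scale. In MEC1 it had 35.6, 35.1 and 33.2 CPM in CTRL and 35.4, 34.5 and 32.8 CPM in 2B17 cells, and these overlapped (log2 fold change -0.02, SE 0.050, adjusted *P* = 0.83). Its relative *INPP4A* fell in MEC1 (log2 fold change -0.33, SE 0.045, adjusted *P* = 6.6e-06) and had a log2 change of 0.01 in JVM2 (SE 0.060, adjusted *P* = 0.95).

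Of 7 5-phosphatases, 1 was higher and 3 were lower in MEC1, and 2 were lower in JVM2. *SYNJ2* (ENSG00000078269, chr6:157981863-158099176) encodes synaptojanin 2, which joins a Sac domain and a 5-phosphatase domain. MEC1-CTRL replicates had 40.1, 38.6 and 36.7 CPM and MEC1-2B17 replicates 30.5, 28.6 and 28.4 CPM. The JVM2-CTRL replicates had 60.3, 59.3 and 60.1 CPM and the JVM2-2B17 replicates 25.4, 32.9 and 27.9 CPM, so all 2B17 replicates were lower in each line. *SYNJ2* was 1.32-fold lower in MEC1 (log2 fold change -0.40, SE 0.051, adjusted *P* = 3.7e-06) and 2.09-fold lower in JVM2 (log2 fold change -1.06, SE 0.089, adjusted *P* = 2.4e-06). Its paralog *SYNJ1* passed in neither line, with log2 changes of 0.10 (adjusted *P* = 0.31) and -0.10 (adjusted *P* = 0.68).

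*INPPL1* encodes SHIP2, which converts the 3,4,5-trisphosphate to the 3,4-bisphosphate. It had 127, 127 and 131 CPM in MEC1-CTRL and 117, 112 and 124 CPM in MEC1-2B17, a log2 change of -0.12 (SE 0.037, adjusted *P* = 0.012; 0.091 without MEC1-2B17 replicate 2). In JVM2 it had 126, 119 and 126 CPM in CTRL and 103, 93.4 and 107 CPM in 2B17 cells, a log2 change of -0.29 (SE 0.065, adjusted *P* = 0.0051). Arms were separate in both lines. *INPP5A*, which acts on soluble inositol phosphates, had 44.1, 42.8 and 41.8 CPM in MEC1-CTRL and 32.8, 30.9 and 34.1 CPM in MEC1-2B17, and fell (log2 fold change -0.40, SE 0.049, adjusted *P* = 2.6e-06). Its JVM2 values overlapped, at 9.15, 7.64 and 8.26 CPM in CTRL and 6.97, 8.43 and 7.57 CPM in 2B17 cells (log2 fold change -0.13, SE 0.14, adjusted *P* = 0.52). *OCRL*, the gene of Lowe syndrome, was higher in MEC1 (log2 fold change 0.19, SE 0.071, adjusted *P* = 0.036), a call lost without MEC1-2B17 replicate 1 or 2 or MEC1-CTRL replicate 2 or 3 (adjusted *P* of 0.053 to 0.17), and in DESeq2, hence in both tools together, with all libraries (adjusted *P* = 0.093). *INPP5B* and *INPP5K* passed in neither line.

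Sac phosphatases share a catalytic signature in which a cysteine and an arginine stand 5 residues apart. The coding stretches of 24 bases around it are shown for the 3 Sac-domain members past the threshold in at least 1 line, read from the canonical GENCODE v44 transcripts on GRCh38, with the cysteine and arginine codons in capitals.
SYNJ2: aacTGTcttgactgcctggacCGA
INPP5F: aatTGTatggactgcctggatCGC
SACM1L: aatTGCatggattgtctagatAGA
*INPP5F* (ENSG00000198825, chr10:119726042-119829147) encodes SAC2, a 4-phosphatase of endosomes. It had 53.8, 51.7 and 47.7 CPM in MEC1-CTRL and 28.9, 29.8 and 29.7 CPM in MEC1-2B17. In JVM2 the order of the arms was reversed, with 26.1, 25.3 and 28.3 CPM in CTRL and 35.7, 42.6 and 39.9 CPM in 2B17 cells. No replicates of opposite arms overlapped, and the log2 fold change was -0.79 (SE 0.051, adjusted *P* = 3.5e-10) in MEC1 and 0.57 (SE 0.089, adjusted *P* = 0.00045) in JVM2. *SACM1L*, the gene of the SAC1 phosphatase of the endoplasmic reticulum, had 48.5, 50.7 and 51.3 CPM in MEC1-CTRL and 46.1, 48.1 and 46.5 CPM in MEC1-2B17 (log2 fold change -0.10, SE 0.044, adjusted *P* = 0.080). It had 32.9, 39.1 and 38.6 CPM in JVM2-CTRL and 41.9, 49.2 and 43.7 CPM in JVM2-2B17 (log2 fold change 0.28, SE 0.090, adjusted *P* = 0.033). The JVM2 call was lost without JVM2-2B17 replicate 3 or any 1 JVM2-CTRL replicate (adjusted *P* of 0.054 to 0.13), and in DESeq2 and both tools together with all libraries (adjusted *P* = 0.052). *FIG4*, a partner of PIKFYVE, passed in neither line.

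**Figure D3:**
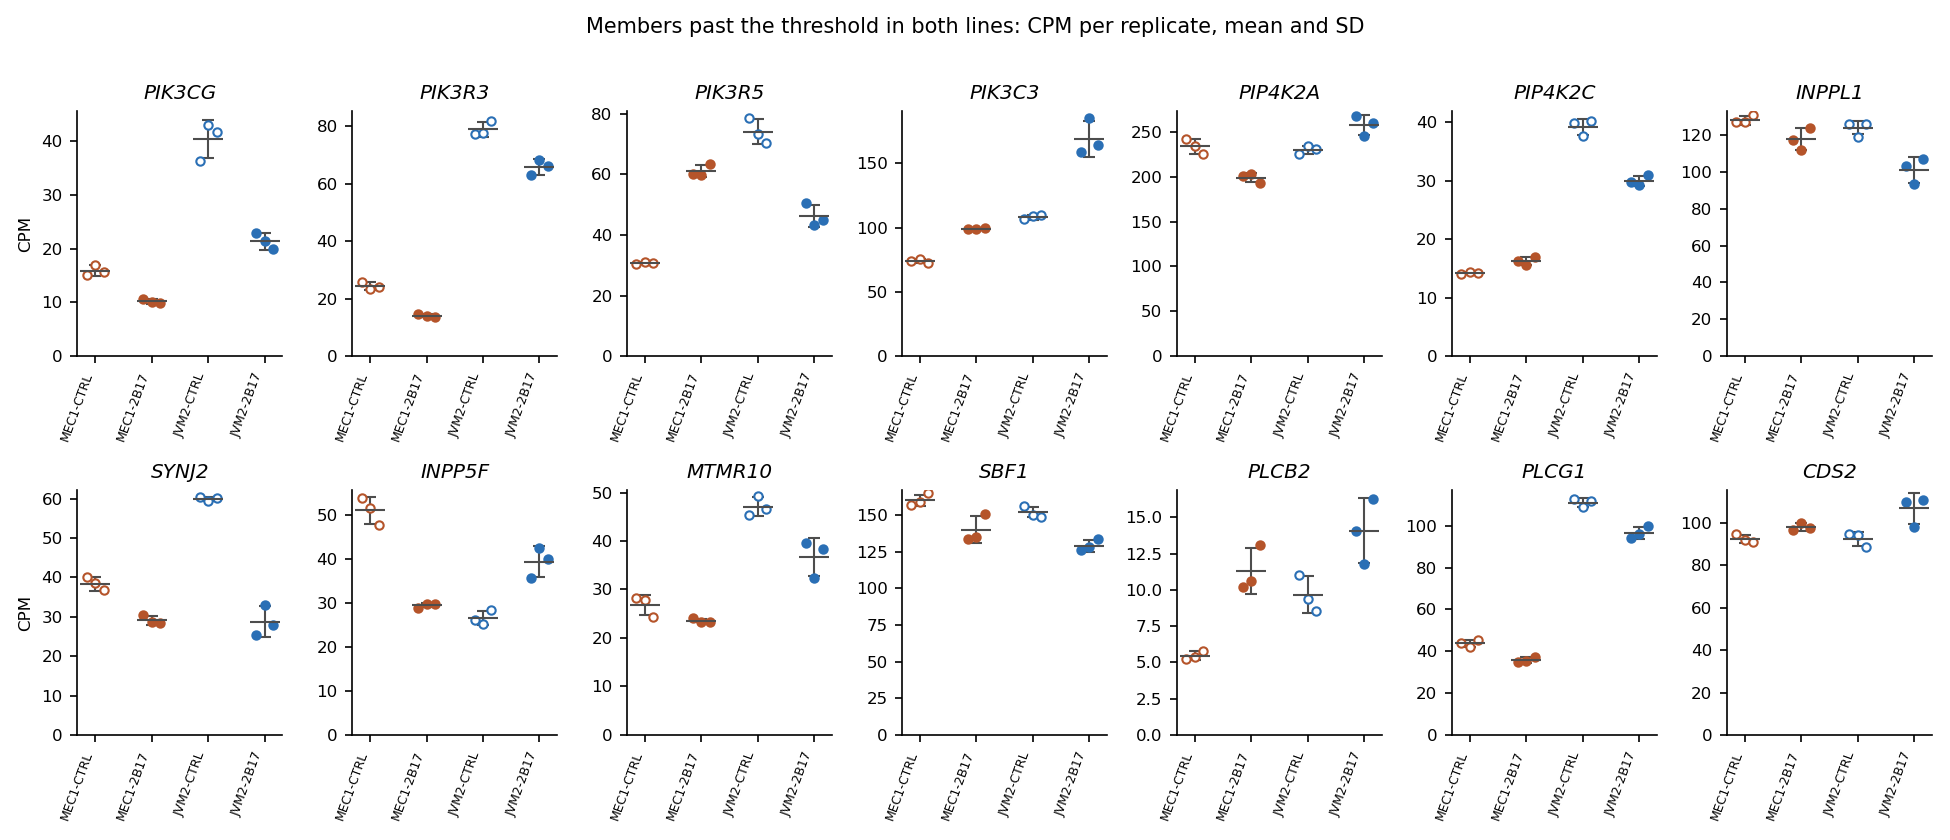
CPM of the 14 members past the threshold in both lines, as points for the 3 replicates of each group (open for CTRL, filled for 2B17 cells, brown for MEC1, blue for JVM2), with the mean as a line and the SD as bars. Arms do not overlap in any panel, but the panels were chosen by their calls, so this is not further evidence. The order of CTRL and 2B17 cells is reversed between the lines for *PIK3R5*, *PIP4K2A*, *PIP4K2C* and *INPP5F*.

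Myotubularins remove the 3-phosphate that PI 3-kinases add on endosomes, and some family members lack the catalytic residues and act as adaptors of active ones. The stretches of 24 bases show this difference for 3 active members and 4 inactive ones, with the cysteine and arginine codons in capitals where they occur. They were read from the same GENCODE transcripts, and inactive members are given at the position aligned to *MTMR2*.
MTMR2: catTGCagtgatggttgggatCGC
MTMR4: cacTGCtcagatggctgggacCGC
MTMR6: catTGTtccgatggttgggatAGG
MTMR10: caagaggaggaaggaagagacttg
MTMR12: ttagaggagaatgcatccgacctc
SBF1: ggcctggaggatggctgggacatc
SBF2: tgtttggaggaaggctgggacatc
Both codons were present in 7 of 7 active members, and neither was at the aligned position in the 5 inactive ones, of which *MTMR9* is not shown. The active members changed little: 2 of 7 were lower in MEC1 and none passed in JVM2, with log2 fold changes from -0.21 to 0.02 in the former and from -0.17 to 0.03 in the latter line. *MTMR6* fell in MEC1 (log2 fold change -0.21, SE 0.036, adjusted *P* = 9.9e-05), as did *MTMR3* (-0.13, SE 0.045, adjusted *P* = 0.023). The *MTMR3* call was lost without MEC1-2B17 replicate 2 or 3 or MEC1-CTRL replicate 1 or 2 (adjusted *P* of 0.067 to 0.10) and in DESeq2 and both tools together (adjusted *P* = 0.0502), and 65.4% of its exon bases overlap a gene on the opposite strand (ENSG00000279159). *MTM1*, *MTMR1*, *MTMR2*, *MTMR4* and *MTMR14* passed in neither line.

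Among the 5 inactive myotubularins, 1 was higher and 2 were lower in MEC1, and 3 were lower and none higher in JVM2. *SBF2* (ENSG00000133812, chr11:9776776-10304877) encodes MTMR13, which joins the inactive phosphatase to a DENN domain and is mutated in a Charcot-Marie-Tooth neuropathy. It had 39.5, 42.4 and 38.8 CPM in JVM2-CTRL and 20.6, 20.2 and 21.6 CPM in JVM2-2B17, where it was 1.93-fold lower (log2 fold change -0.95, SE 0.081, adjusted *P* = 2.6e-06). In MEC1 it was low, with 4.39, 4.44 and 3.73 CPM in CTRL and 5.03, 4.35 and 5.64 CPM in 2B17 cells, which overlapped (log2 fold change 0.25, SE 0.12, adjusted *P* = 0.095). Its paralog *SBF1*, of MTMR5, had 157, 159 and 165 CPM in MEC1-CTRL and 134, 135 and 151 CPM in MEC1-2B17 (log2 fold change -0.19, SE 0.042, adjusted *P* = 0.00099). In JVM2, *SBF1* had 156, 150 and 149 CPM in CTRL and 126, 128 and 134 CPM in 2B17 cells (log2 fold change -0.23, SE 0.057, adjusted *P* = 0.0090). *SBF1* was thus lower without overlap in both lines.

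*MTMR10* had 28.2, 27.8 and 24.4 CPM in MEC1-CTRL and 24.1, 23.4 and 23.4 CPM in MEC1-2B17, arms that were separated by the narrow gap between 24.4 and 24.1 CPM (log2 fold change -0.18, SE 0.059, adjusted *P* = 0.018). This call was lost without MEC1-2B17 replicate 2 or 3 or MEC1-CTRL replicate 1 or 2 (adjusted *P* of 0.053 to 0.088). In JVM2 it had 45.4, 49.2 and 46.7 CPM in CTRL and 39.6, 32.3 and 38.3 CPM in 2B17 cells, which did not overlap (log2 fold change -0.36, SE 0.086, adjusted *P* = 0.0081). *MTMR10* shares 17.1% of its exon bases with *FAN1* on the opposite strand, and *SBF1* 9.99% with *PPP6R2*. The strand setting of the counting is not given in the sources used here, so reads of such pairs cannot be told apart. *MTMR9*, a partner of MTMR6, was higher in MEC1 (log2 fold change 0.17, SE 0.045, adjusted *P* = 0.0045) and had a log2 change of -0.25 in JVM2 (SE 0.13, adjusted *P* = 0.16). *MTMR12* passed in neither line.

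Phospholipases C showed the largest rise of any member. *PLCB2* (ENSG00000137841, chr15:40278176-40307935) encodes the Gq- and Gβγ-activated isoform of blood cells. It had 5.23, 5.40 and 5.81 CPM in MEC1-CTRL and 10.2, 10.6 and 13.1 CPM in MEC1-2B17, a 2.06-fold rise (log2 fold change 1.05, SE 0.099, adjusted *P* = 7.6e-08). In JVM2 it had 11.0, 9.41 and 8.58 CPM in CTRL and 14.1, 11.8 and 16.3 CPM in 2B17 cells (log2 fold change 0.54, SE 0.14, adjusted *P* = 0.013). All 2B17 replicates were higher in each line, and the JVM2 call was lost without JVM2-2B17 replicate 3 or JVM2-CTRL replicate 2 or 3 (adjusted *P* of 0.052 to 0.064). The antisense gene *PLCB2-AS1* covers 4.86% of its exon bases.

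*PLCG1*, the isoform that tyrosine kinases activate and that T cells rely on, went the other way. It had 44, 42.2 and 45.5 CPM in MEC1-CTRL and 35.1, 35.3 and 37.5 CPM in MEC1-2B17 (log2 fold change -0.29, SE 0.048, adjusted *P* = 8.4e-05). JVM2-CTRL replicates had 113, 109 and 112 CPM, and JVM2-2B17 replicates 94.2, 96.0 and 99.7 CPM (log2 fold change -0.21, SE 0.057, adjusted *P* = 0.016). The arms were apart in both lines, and in JVM2 the call was lost without JVM2-2B17 replicate 1 or JVM2-CTRL replicate 1 or 3 (adjusted *P* of 0.060 to 0.073). *PLCD1*, a delta isoform, was low, with 2.08, 2.18 and 1.75 CPM in MEC1-CTRL and 2.75, 2.54 and 2.84 CPM in MEC1-2B17 (log2 fold change 0.43, SE 0.14, adjusted *P* = 0.018). This call was lost without MEC1-2B17 replicate 3 (adjusted *P* = 0.058) or MEC1-CTRL replicate 3 (adjusted *P* = 0.078), and in DESeq2 and both tools together (adjusted *P* = 0.073). Its JVM2 replicates overlapped, at 7.56, 5.96 and 6.46 CPM in CTRL and 8.51, 7.98 and 7 CPM in 2B17 cells (log2 fold change 0.24, SE 0.15, adjusted *P* = 0.25).

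The supply and transfer genes changed by 0.22 or less on the log2 scale. *CDS2*, which makes the CDP-diacylglycerol used for phosphatidylinositol, had 94.6, 91.8 and 90.9 CPM in MEC1-CTRL and 96.7, 100 and 97.6 CPM in MEC1-2B17 (log2 fold change 0.09, SE 0.034, adjusted *P* = 0.04997). It had 94.6, 94.3 and 88.7 CPM in JVM2-CTRL and 110, 98.2 and 111 CPM in JVM2-2B17 (log2 fold change 0.20, SE 0.066, adjusted *P* = 0.035). Neither rise was stable: the MEC1 call was lost without any 1 of its 6 libraries (adjusted *P* of 0.055 to 0.17), and the JVM2 call without any but JVM2-2B17 replicate 2 (adjusted *P* of 0.063 to 0.14). With all libraries, the MEC1 call was lost in 7 of the 8 alternative fits (adjusted *P* of 0.055 to 0.10) and the JVM2 call in DESeq2 and both tools together (adjusted *P* = 0.065). *PITPNA*, a phosphatidylinositol transfer protein, was lower in JVM2 (log2 fold change -0.22, SE 0.065, adjusted *P* = 0.025), which was lost without any 1 JVM2-CTRL replicate (adjusted *P* of 0.061 to 0.099) and in DESeq2 and both tools together (adjusted *P* = 0.071). Its relative *PITPNB* was higher in MEC1 (log2 fold change 0.12, SE 0.046, adjusted *P* = 0.036), which was lost without MEC1-2B17 replicate 2 or MEC1-CTRL replicate 1 or 2 (adjusted *P* of 0.092 to 0.15), in DESeq2 and both tools together (adjusted *P* = 0.06) and with library size only (adjusted *P* = 0.051).

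The lines were next compared, since the study asked which changes they share. Of the 49 members tested in both, 14 passed in both (15.8% of 12243 genes did), 10 with the same direction (8.37% of genes) and 4 with opposite directions (7.43%). *PIK3C3*, *PLCB2* and *CDS2* were higher in both lines (3.90% of genes were), and the 7 members *PIK3CG*, *PIK3R3*, *INPPL1*, *SYNJ2*, *MTMR10*, *SBF1* and *PLCG1* were lower in both (4.48% of genes). Some of these genes also stand in lists that the study drew from these same libraries, so such lists are not independent evidence of their direction. Another 15 members passed in MEC1 alone, 6 in JVM2 alone and 15 in neither, which does not show that those genes differ between lines. Without JVM2-CTRL replicate 3, 9 passed in both lines, 6 of them with the same direction. Signs of the log2 fold change matched in 28 of the 49 members (57.1%, against 50.2% of genes). As a description, Pearson's r of the changes in MEC1 and JVM2 was 0.14 over members and 0.04 over all genes, which share their libraries.

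A joint fit of all 12 libraries tested the difference itself, as an interaction, and 18 of 50 members passed (36%, against 32.2% of 15130 genes). The contrasts were unlike, since MEC1-CTRL cells carried an shRNA under another antibiotic and JVM2-CTRL cells the empty vector. *UGT2B17* itself changed more in MEC1, with an interaction of 0.46 (SE 0.13, adjusted *P* = 0.0082). Differences of line, control construct and size of the *UGT2B17* change cannot be told apart here. The largest difference was that of *PIK3R5*, whose change in MEC1 exceeded that in JVM2 by 1.66 on the log2 scale (SE 0.085, adjusted *P* = 1.0e-11). For *INPP5F* the value was -1.37 (SE 0.10, adjusted *P* = 3.1e-09), the MEC1 change being the lower one. For *SBF2* it was 1.20 (SE 0.14, adjusted *P* = 9.9e-07), for *SYNJ2* 0.66 (SE 0.10, adjusted *P* = 4.6e-05) and for *PIK3CB* 0.60 (SE 0.12, adjusted *P* = 0.00091). *PIK3CG*, lower in both lines, did not pass (0.27, SE 0.11, adjusted *P* = 0.081). All 4 members with opposite calls passed the interaction. They were chosen by calls from the same libraries, so this is not independent evidence of opposite directions.

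**Figure D4:**
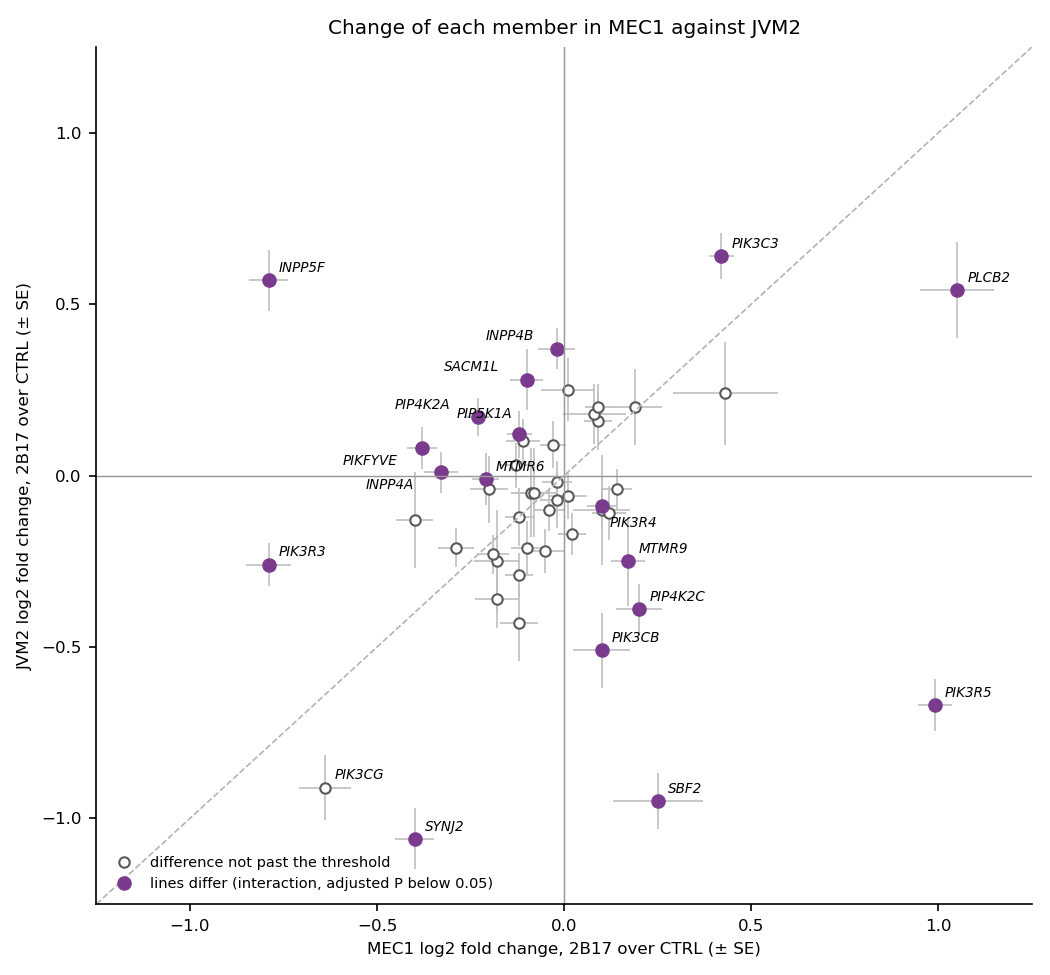
Log2 fold change of each of the 49 members tested in both lines, MEC1 on the horizontal and JVM2 on the vertical axis, with bars of 1 SE and a dashed line of equal change. Purple points passed the interaction test, and *PIK3R5* (0.99 and -0.67) and *INPP5F* (-0.79 and 0.57) lie farthest from the dashed line.

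Levels of different members were compared per length, as CPM per kilobase of merged exons. By this length the same 3 genes led in both control groups. In MEC1-CTRL, *PI4K2B*, a membrane-recruited PI 4-kinase, had 52.8 ± 2.03 CPM per kilobase (SD, n = 3), *PIP4K2A* 45.8 ± 1.56 and *MTMR4*, an endosomal myotubularin, 23.3 ± 0.834. In JVM2-CTRL, *PIP4K2A* had 45.1 ± 0.902, *PI4K2B* 31.7 ± 4.77 and *MTMR4* 26.5 ± 0.208 CPM per kilobase. Their order depends on the length used: per kilobase of the longest transcript *PIP4K2A* (61.2) stood above *PI4K2B* (54.2) in MEC1-CTRL, and *MTMR4* (33.1) and *PI4K2B* (32.5) did not differ beyond their SDs in JVM2-CTRL. By the longest transcript *PIP5K1A* also came close to the leaders. It had 28.8 in MEC1-CTRL, against 29.2 for *MTMR4*, and 30.3 in JVM2-CTRL. By merged exons, *PIP5K1A* at 20.2 and *INPPL1* at 19.5 CPM per kilobase, behind the 3 leaders in MEC1-CTRL, did not differ beyond their SDs. In all, 29 of the 49 neighbouring pairs in that order were not apart by more than both SDs, and 33 of 49 in JVM2-CTRL. The median member had 4.66 CPM per kilobase in MEC1-CTRL and 7.13 in JVM2-CTRL.

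None of the leaders but *PIP4K2A* changed past the threshold. *PI4K2B* had 200, 197 and 186 CPM in MEC1-CTRL and 187, 186 and 174 CPM in MEC1-2B17 (log2 fold change -0.09, SE 0.040, adjusted *P* = 0.069). In JVM2 its replicates varied widely, at 97.6, 132 and 121 CPM in CTRL and 94.1, 140 and 106 CPM in 2B17 cells (log2 fold change -0.05, SE 0.13, adjusted *P* = 0.83). *MTMR4* had 170, 173 and 182 CPM in MEC1-CTRL and 176, 179 and 175 CPM in MEC1-2B17 (log2 fold change 0.02, SE 0.037, adjusted *P* = 0.78). It had 199, 197 and 199 CPM in JVM2-CTRL and 178, 163 and 187 CPM in JVM2-2B17, which did not overlap but missed the threshold (log2 fold change -0.17, SE 0.062, adjusted *P* = 0.052). At the other end, and leaving aside *PIK3R2* for its shared reads, *SBF2* was lowest in MEC1-CTRL at 0.144 CPM per kilobase and *MTM1* in JVM2-CTRL at 0.806.

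**Figure D5:**
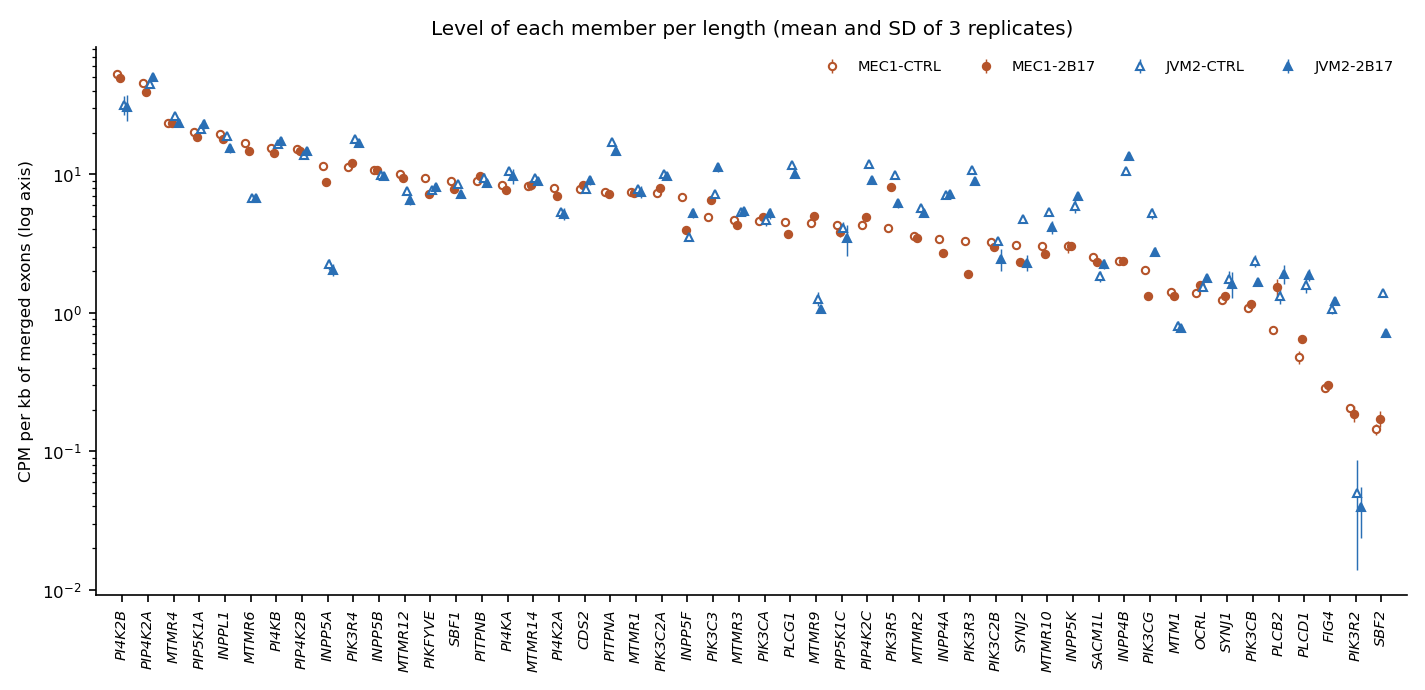
Level of each member in CPM per kilobase of merged exons (vertical log axis, mean with SD of 3 replicates) in the 4 groups, ordered by MEC1-CTRL (circles for MEC1, triangles for JVM2, open for CTRL, filled for 2B17 cells). *PI4K2B*, *PIP4K2A* and *MTMR4* lead in both control groups, and *SBF2* lies near the bottom in MEC1-CTRL. The points of *PIK3R2* rest on reads that a readthrough gene shares.

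Other genes of the pathway, from lists outside the 50 members, were counted in the same fits. Of 19 further enzymes and transfer proteins tested in MEC1, 3 were higher and 9 lower, and of 17 in JVM2, 5 were higher and 2 lower. That was 63.2% in MEC1, against 41.7% of all genes tested, and 41.2% in JVM2, against 29.3%. In MEC1 the largest changes were those of *PIP5K1B*, a type I PIP kinase (-1.49, SE 0.067, adjusted *P* = 2.7e-12), *PIK3AP1*, the B-cell adaptor BCAP (-0.75, SE 0.032, adjusted *P* = 1.1e-12), and *PLCD3* (-0.71, SE 0.21, adjusted *P* = 0.0092, at 22 to 61 counts per library), on the log2 scale. In JVM2 they were those of *PLCB1*, whose 72, 91 and 61 counts in CTRL cells stood against 579, 443 and 483 in 2B17 cells (2.82, SE 0.10, adjusted *P* = 1.3e-09), of *PLCL1*, a phospholipase-related protein without activity (0.87, SE 0.063, adjusted *P* = 5.9e-07), and of *PITPNC1* (-0.56, SE 0.070, adjusted *P* = 7.6e-05). The first genes differed in JVM2: *PIK3AP1* was higher (0.19, SE 0.054, adjusted *P* = 0.02), *PIP5K1B* lower (-0.33, SE 0.074, adjusted *P* = 0.0053), and *PLCD3* did not pass. In MEC1, *PLCL1* was lower (-0.53, SE 0.072, adjusted *P* = 7.8e-06) and *PITPNC1* higher (0.21, SE 0.055, adjusted *P* = 0.0042), while *PLCB1* was not tested.

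In the branch that handles inositol phosphates and diacylglycerol, 5 genes were higher and 7 lower of 19 in MEC1, and 3 higher and 2 lower of 19 in JVM2. The shares that passed were 63.2% in MEC1, against 41.7% of all genes tested, and 26.3% in JVM2, against 29.3%. *ITPKB*, a kinase of inositol trisphosphate, had 18, 28 and 26 counts in JVM2-CTRL and 395, 350 and 400 in JVM2-2B17 (log2 fold change 4.06, SE 0.16, adjusted *P* = 1.9e-09), and did not pass in MEC1 (-0.06, SE 0.042, adjusted *P* = 0.29). The diacylglycerol kinase gene *DGKG* was lower in both lines, by log2 changes of -2.19 (SE 0.35, adjusted *P* = 5.4e-05) in MEC1 and -0.82 (SE 0.20, adjusted *P* = 0.0088) in JVM2. Its counts were low, at 3 to 42 per library in MEC1 and 22 to 68 in JVM2. *ISYNA1*, which makes inositol phosphate from glucose 6-phosphate, rose in MEC1 (1.72, SE 0.089, adjusted *P* = 1.8e-11), *ITPKA* fell there (-1.49, SE 0.37, adjusted *P* = 0.0028, at 4 to 16 counts per library), and the inositol monophosphatase gene *IMPA2* rose in JVM2 (1.64, SE 0.34, adjusted *P* = 0.0033, at 6 to 27 counts per library).

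Of 14 effectors and partners, 4 were higher and 7 lower in MEC1, and 2 were higher and 1 lower in JVM2. Thus 78.6% passed in MEC1, against 41.7% of all genes tested, and 21.4% in JVM2, against 29.3%. *PLEKHA1*, which binds the 3,4-bisphosphate, was higher in both lines, with log2 changes of 1.3 (SE 0.11, adjusted *P* = 1.4e-08) in MEC1 and 0.97 (SE 0.31, adjusted *P* = 0.032, at 7 to 28 counts per library) in JVM2. In MEC1, *ATG14*, a subunit of the VPS34 complex of autophagy, was higher (0.22, SE 0.064, adjusted *P* = 0.010). In JVM2, the phosphatidylinositol 3-phosphate effector *WIPI2* was higher (0.33, SE 0.060, adjusted *P* = 0.0013) and *WIPI1* lower (-0.26, SE 0.075, adjusted *P* = 0.021).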

How the data were processed

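RNA of 12 samples in 4 groups was sequenced in paired-end libraries after removal of ribosomal RNA. The authors trimmed reads with Trimmomatic and aligned them to hg38 with TopHat2 (2.0.14), and HTSeq is named in the submitters' processing notes. The raw counts per gene were deposited by the authors for each line, without normalization, and only these were used. The same tables hold 12 columns of normalized values and the authors' own fold changes, expression averages and *P*-values of edgeR and DESeq2, none of which was used. No table row had under 10 counts over its 6 libraries.

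Each whole table was fitted with edgeR 4.0.16 in R 4.3.3 (TMM, filterByExpr with a minimum count of 10 and total of 15, quasi-likelihood F-test), 2B17 against CTRL. Line and arm were also fitted together, for genes in both tables. *P*-values were adjusted by Benjamini-Hochberg over all genes tested, with a threshold of 0.05. CPM used TMM-scaled library sizes, and error bars are SDs over replicates or SEs of fits. Levels per length used merged exons of GENCODE 44. The steps were tested on simulated data. Of genes changed there by 0.3 on the log2 scale, 53% were recovered in MEC1, 26.9% in JVM2 and 14.7% in the interaction. At a change of 1 the shares were 91.9%, 92.3% and 71.2%. A small change can thus go uncalled, above all in JVM2 and in the interaction. Members were found by symbol, and the members and gene lists were chosen with earlier results of these data known. Replicate values are given for members past the threshold in both lines, the 5 largest rises and falls per line, the 5 largest interactions, the 3 highest levels per control group and any member under the filter. For other pathway genes, the 3 largest changes per list and line are given, except for 1 gene that is not reported here. The sequences come from GENCODE transcripts and from RefSeq promoters, which matched 45 members. Alternatives were DESeq2 1.42.0, edgeR's exact test, both tools together, RLE scaling, library size only, no filter, 10 counts in every library, a replicate block, each library left out and the longest transcript.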

Additional observations from a re-analysis of the deposited data

Results flagged for a closer look

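The change on 2B17 against CTRL differed between the lines for 18 members by the interaction test, given here as the MEC1 log2 fold change minus that of JVM2. The lines also differed in the construct of their CTRL cells and in the size of the *UGT2B17* change, which cannot be told apart from line. The 8 positive differences were those of *PIK3R5* (1.66), *SBF2* (1.20), *SYNJ2* (0.66), *PIK3CB* (0.60), *PIP4K2C* (0.58), *PLCB2* (0.50), *MTMR9* (0.42) and *PIK3R4* (0.18). The 10 negative differences were those of *INPP5F* (-1.37), *PIK3R3* (-0.53), *PIKFYVE* (-0.46), *PIP4K2A* (-0.41), *INPP4B* (-0.39), *SACM1L* (-0.39), *INPP4A* (-0.35), *PIP5K1A* (-0.24), *PIK3C3* (-0.23) and *MTMR6* (-0.21). Of these differences, 12 passed under every alternative run for the interaction, which left out edgeR's exact test and both tools together. The other 6 were lost with single libraries left out. *MTMR6* was lost without any but JVM2-2B17 replicate 1 and MEC1-CTRL replicate 3 (adjusted *P* of 0.05001 to 0.15, edgeR), and with all libraries in DESeq2, with library size only, without the filter and with RLE scaling (adjusted *P* of 0.051 to 0.069). *MTMR9* was lost without JVM2-CTRL replicate 2 (adjusted *P* = 0.074). *PLCB2* was lost without JVM2-2B17 replicate 1 or 2, JVM2-CTRL replicate 1 or 2, MEC1-2B17 replicate 3 or MEC1-CTRL replicate 1 or 2 (adjusted *P* of 0.056 to 0.14). *PIK3C3* was lost without JVM2-2B17 replicate 2, any 1 JVM2-CTRL replicate, MEC1-2B17 replicate 1 or MEC1-CTRL replicate 2 (0.051 to 0.069 as adjusted *P*). *PIP5K1A* was lost without JVM2-2B17 replicate 1 or 3, JVM2-CTRL replicate 3 or MEC1-CTRL replicate 1 or 3 (adjusted *P* of 0.05004 to 0.072), and *PIK3R4* without JVM2-2B17 replicate 1, JVM2-CTRL replicate 3, MEC1-2B17 replicate 1 or MEC1-CTRL replicate 1 (adjusted *P* of 0.051 to 0.070).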

How the results depend on the processing

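No value changed direction among those called, under any alternative run. With DESeq2, and with both tools together, 6 members were higher in MEC1 in place of 11, and 4 were higher in JVM2 in place of 7; the cause was not tested. With single libraries left out, 22 to 26 members passed in MEC1 (7 to 9 higher, 13 to 18 lower) and 12 to 24 in JVM2 (3 to 10 higher, 9 to 14 lower). Between 9 and 15 then passed in both lines, 6 to 10 with the same and 3 to 5 with opposite directions, and 14 to 19 passed the interaction. Over all genes, 5936 to 6606 passed in MEC1 and 2687 to 4540 in JVM2 with single libraries left out. Calls held under every alternative run for 18 of 29 members in MEC1, 12 of 20 in JVM2 and 12 of 18 in the interaction. Per length of the longest transcript, *PIP4K2A* had 61.2 CPM per kilobase in MEC1-CTRL and 60.2 in JVM2-CTRL, and *MTMR4* had 29.2 and 33.1, since these transcripts are shorter than the merged exons, while *PI4K2B* had 54.2 and 32.5. Replicate numbers did not pair the samples: deviations of same-numbered replicates correlated by -0.07 to 0.05 in MEC1 and -0.01 to 0.13 in JVM2. With the replicate block, 29 members passed in MEC1, 22 in JVM2, 13 in both lines and 21 in the interaction. In MEC1 the block lost *PIK3R4* (adjusted *P* = 0.06, edgeR) and *CDS2* (0.062) and gained *PI4KB* (0.025) and *PI4K2B* (0.037), with which all 4 PI 4-kinases passed, so 9 members were higher and 20 lower. In JVM2 it gained *INPP5K* (0.032) and *MTMR4* (0.035), and in the interaction *PIK3C2B* (0.040), *PI4KB* (0.022) and *MTMR4* (0.045). JVM2 libraries were shallower and their replicates more variable than those of MEC1, and the part of each in the number of calls there was not tested.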

Other observations

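Levels per length were also summed over the members of a role. The 6 class I genes together had 15.3 ± 0.0909 CPM per kilobase (SD, n = 3) in MEC1-CTRL and 17.6 ± 0.257 in MEC1-2B17, and 32.8 ± 0.772 in JVM2-CTRL and 24.8 ± 0.540 in JVM2-2B17. *PIK3R5*, itself part of this sum, went the way of the sum in each line, higher in MEC1 and lower in JVM2. In MEC1 it had 4.09 CPM per kilobase in CTRL and 8.14 in 2B17 cells, a larger rise than that of the sum. *PIK3CG* and *PIK3R3* were lower in MEC1. In JVM2, *PIK3CG*, *PIK3R3* and *PIK3CB* were lower too. The 3 Sac phosphatases together had 9.62 ± 0.366 and 6.59 ± 0.133 CPM per kilobase in MEC1-CTRL and MEC1-2B17, and 6.47 ± 0.365 and 8.73 ± 0.685 in the JVM2 groups. The 7 active myotubularins, which remove the phosphate that the class III kinase adds, summed to 65.6 ± 0.587 and 62.9 ± 0.515 in MEC1, and to 62.3 ± 0.440 and 58.1 ± 1.69 in JVM2. By the longest transcript the class I sums were 23.6, 28.4, 48 and 37, the Sac sums 15.7, 11.3, 12.1 and 15.7, and the active myotubularin sums 87.3, 84.4, 87.2 and 81.4, in the same order of groups. No test was made of these sums.

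Paralogs stood in different proportions in the lines. *SBF2* had 0.0161 ± 0.00189 of the level of *SBF1* per length in MEC1-CTRL and 0.0220 ± 0.00192 in MEC1-2B17, against 0.163 ± 0.00955 in JVM2-CTRL and 0.0992 ± 0.00176 in JVM2-2B17, and by the longest transcript 1.73 times as much (0.0280, 0.0381, 0.283 and 0.172). *INPP5F* had 2.72 ± 0.240 times the level of *SACM1L* in MEC1-CTRL and 1.68 ± 0.0225 times in MEC1-2B17, and 1.94 ± 0.194 and 2.34 ± 0.0833 times in JVM2-CTRL and JVM2-2B17. By the longest transcript these ratios were smaller, at 1.84, 1.13, 1.31 and 1.58 in the same order of groups. Genes within 5 Mb of the members had median log2 fold changes within 0.1 of 0 for 48 of 50 members in MEC1 and 42 of 50 in JVM2.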
